A study of Mus musculus with 32 samples.

Results

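Oxidative phosphorylation genes encoded in the nucleus were followed by respiratory complex across 4 sorted B lineage populations of immunized mice. The members are the protein-coding genes whose symbols match the family patterns of the subunits (Nduf a, b, c, s or v with a number, Sdha to Sdhd, Uqcr, Cox4 to Cox8 with an a, b or c, and Atp5) and that reach 10 counts summed over the 32 libraries. They number 78 of the 53465 genes in the count table. By symbol, 37 belong to complex I, 4 to complex II, 8 to complex III, 13 to complex IV and 16 to complex V. The patterns matched 81 protein-coding genes, and the other 3, Cox8b, Cox8c and Cox7b2, had 0 counts in every library. Ndufa4, counted here with complex I by its name, is known as a subunit of complex IV.

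Cells were sorted from spleens of C57BL/6 mice at 12 weeks of age, 14 days after an intraperitoneal injection of NP-CGG in alum, a T cell dependent hapten and carrier antigen. The groups were plasma cells (PC), light zone (LZ) B cells, dark zone (DZ) B cells and naïve B cells, each from aPIK3CD mice, which carry AID-cre and activated PIK3CD, and from WT mice, which carry AID-cre alone. Each of the 8 groups had 4 libraries of 500 sorted cells each. The study concerns activated PI3K-delta signalling in humoral immunity. AID-cre is a Cre driver active in germinal centre B cells. In the 4 libraries titled aPIK3CD replicate 1 the genotype field reads AID-cre WT. They were grouped by title.

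Oxidative phosphorylation makes most of the ATP of a resting cell. Complex I (NADH dehydrogenase) and complex II (succinate dehydrogenase, which is also an enzyme of the citrate cycle) pass electrons to complex III and on to complex IV, which reduces oxygen. Complexes I, III and IV pump protons across the inner mitochondrial membrane, and complex V (ATP synthase) uses their return to make ATP. Complex II is encoded wholly in the nucleus, whereas the other complexes also hold subunits encoded by mitochondrial DNA. Antibody-secreting plasma cells are known for a high demand for ATP and for active mitochondria.

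Totals per library were 473149 to 788999 counts in plasma cells, 902088 to 1835558 in LZ cells, 1154809 to 1941224 in DZ cells and 1965329 to 2820830 in naïve cells. DZ WT replicate 3 had 25797 counts and is not used below, so DZ WT has 3 libraries. Intervals and floors cover counting error only. Plasma cells carried their markers. The plasma cell list (Prdm1, Xbp1, Irf4, Sdc1, Jchain and Tnfrsf17) summed to 10727 to 14471 CPM (counts relative to the library's total, scaled by the trimmed mean of M values over all libraries) in plasma cells and at most 1404 CPM elsewhere. T cell genes, 5 of 5 found, summed to 131.87 to 201.44 CPM in aPIK3CD plasma cells, 111.63 to 351.42 in WT plasma cells and at most 164.94 in the other populations. Monocyte and macrophage genes, 5 of 5 found, summed to 227.79 to 665.72 CPM in aPIK3CD plasma cells, 26.163 to 433.71 in WT plasma cells and at most 380.25 elsewhere. Every gene of both lists was detected in each plasma cell group. The part of these cells in the results was not tested.

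Promoters of these genes are a textbook case of nuclear control of mitochondrial proteins, with sites for NRF1, ETS factors (NRF2) and YY1. RefSeq promoters of the GRCm38.p6 build, 250 bases before to 50 after a gene's start, were found for 64 of the 78 members. The NRF1 motif (GCGCA and GCGC with any base between them), sought on both strands like the others, was in 16 of the 64 and in 4.78% of all 27025 promoters. The ETS motif CCGGAAG was in 15 (23.4%), against 9.12% of all promoters, and the YY1 motif (AAGATGG followed by CGG) in 4 (6.25%), all of complex I, against 0.899%. At least 1 of the 3 motifs was in 30 members (46.9%), against 13.6% of all promoters. None of the 3 motifs contains another, and a match is a description and not a bound site.

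Printed below are 3 promoters of members that differ in how they vary among the populations. Sdha (ENSMUSG00000021577), the flavoprotein subunit of complex II, was lower in germinal centre cells than in naïve cells. Cox6a1 (ENSMUSG00000041697), the broadly expressed isoform of a complex IV subunit, followed most other members, and Ndufa1 (ENSMUSG00000016427), a small membrane subunit of complex I, had the smallest p between plasma and naïve cells in both genotypes. The sequences run 5′ to 3′ on the minus strand of chromosomes 13 (chr13:74350281-74350490), 5 (chr5:115348982-115349208) and X (chrX:37191239-37191488), and stop before the first transcribed base. Capitals mark the NRF1 motif.
Sdha: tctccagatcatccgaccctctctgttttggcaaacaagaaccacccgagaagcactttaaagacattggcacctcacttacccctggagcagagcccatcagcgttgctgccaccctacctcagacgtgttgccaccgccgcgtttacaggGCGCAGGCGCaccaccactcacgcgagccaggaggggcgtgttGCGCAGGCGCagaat
Cox6a1: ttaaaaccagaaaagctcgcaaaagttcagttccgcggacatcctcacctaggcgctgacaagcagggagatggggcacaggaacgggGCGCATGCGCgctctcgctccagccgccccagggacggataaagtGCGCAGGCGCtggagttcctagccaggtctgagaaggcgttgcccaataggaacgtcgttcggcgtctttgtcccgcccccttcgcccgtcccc
Ndufa1: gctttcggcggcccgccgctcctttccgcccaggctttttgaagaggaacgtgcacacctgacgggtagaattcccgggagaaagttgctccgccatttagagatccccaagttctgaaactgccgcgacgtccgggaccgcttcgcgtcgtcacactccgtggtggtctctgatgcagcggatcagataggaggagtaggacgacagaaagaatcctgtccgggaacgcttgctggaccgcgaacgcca
The Sdha stretch holds the motif at 98 and 55 bases before the RefSeq start, and another match lies 10 bases before it, outside the printed stretch. Cox6a1 holds it at 162 and 117 bases before the start and has an ETS match at 16 bases. The Ndufa1 stretch holds none of the 3 motifs as spelled. Sdha and Cox6a1, whose levels differ in opposite directions between DZ and naïve cells, both hold the NRF1 letters.

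Summed over all 78 genes, expression was highest in plasma cells, intermediate in both germinal centre zones and lowest in naïve cells. The sum was 21185 ± 635 CPM in aPIK3CD plasma cells and 23204 ± 1817 in WT plasma cells (SD, n = 4 each). In LZ cells it was 14958 ± 617 CPM for aPIK3CD and 15439 ± 1753 for WT (n = 4 each), and in DZ cells 14645 ± 1157 for aPIK3CD (n = 4) and 16035 ± 410 for WT (n = 3). In naïve cells it was 9923 ± 387 CPM for aPIK3CD and 10045 ± 1604 for WT (n = 4 each). In scaled CPM all plasma cell libraries lay above all LZ and DZ libraries, and these above all naïve libraries. The scaling factors were 0.793 to 0.834 in plasma cells and 1.01 to 1.09 in LZ cells. As unscaled shares of the total count, plasma cells (1.64 to 2.04%) overlapped LZ (1.45 to 1.88%) and DZ cells (1.40 to 1.70%). Naïve cells (0.900 to 1.26%) stayed below all of them. In such bulk samples fewer cells of a type and less RNA per cell cannot be told apart.

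The group means of each complex followed this order, and in complex II those of germinal centre cells lay near the naïve level. Complex I summed to 10530 ± 1088 CPM in WT plasma cells, 6498 ± 979 in WT LZ cells, 6806 ± 287 in WT DZ cells and 3997 ± 740 in WT naïve cells. Complex II summed to 1383 ± 114 CPM in WT plasma cells, 1053 ± 50.8 in WT LZ cells, 1066 ± 66.7 in WT DZ cells and 975 ± 117 in WT naïve cells. The ranges of complex II in WT germinal centre and naïve cells overlapped, whereas those of complex I did not. As a share of all members' CPM, complex II made up 5.99% in WT plasma cells and 9.76% in WT naïve cells.

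**Figure D1:**
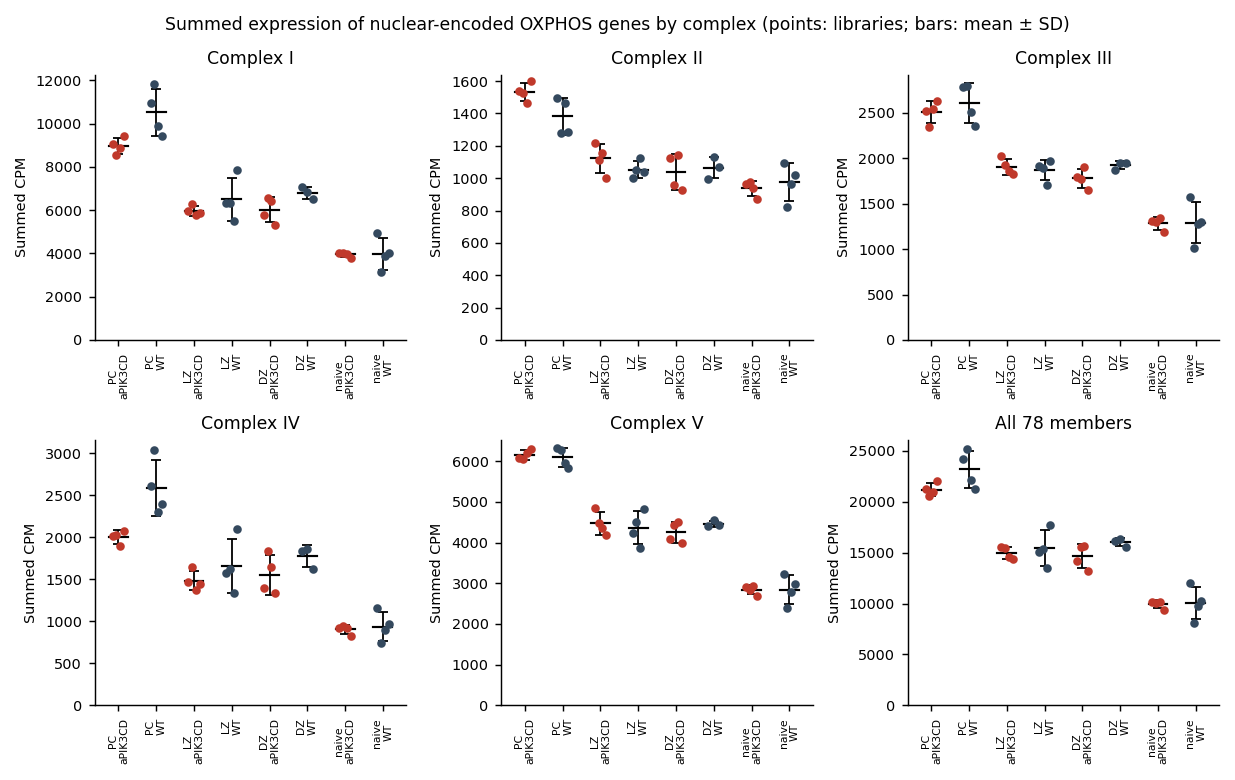
Summed CPM of the members of each complex (y axes, from 0) in each of the 8 groups (x axes), with aPIK3CD in red and WT in dark blue. Points are libraries and bars the mean ± SD, and complex II in DZ and LZ cells lies near the naïve level while the other complexes lie above it.

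Within a complex, levels per kilobase of exon were uneven. Averaged over the 8 groups, Ndufa1 had the highest level of the 78 genes at 489 CPM per kilobase, followed by Cox6a1 with 411 and Cox6b1, a peripheral subunit of complex IV, with 370. The catalytic and core subunits ranged from 20.8 CPM per kilobase for Ndufs1, the largest iron-sulphur subunit of complex I, to 286 for Ndufs8. Atp5a1 and Atp5b, the alpha and beta subunits of the ATP synthase head, had 262 and 249 CPM per kilobase. Of the isoform sets, Atp5g3 held at least 95.8% of the length-scaled level of the c subunit genes in every group. Cox6b1 held at least 98.7% of its pair and Ndufa4 at least 97.0% of its pair on average. Lengths were the union of GENCODE M21 exons.

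Germinal centre cells had more RNA of most members than naïve cells. Between DZ and naïve WT cells, 56 of 74 tested members rose and 2 fell, while 19.6% of all genes tested rose and 21.8% fell. The members' median log2 fold change was 0.77, against -0.08 over all genes tested. In aPIK3CD cells, 56 of 73 rose and 1 fell, against 22.2% and 21.4% of all genes, and 53 members rose in both genotypes. Members with too few reads in a comparison were not tested. Calls here and below are edgeR quasi-likelihood tests with a Benjamini-Hochberg adjusted p under 0.05 over all genes tested. The labels do not say whether replicates came from separate mice, so p-values measure the spread between these libraries, which may be technical.

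By complex, 29 of 36 members of complex I rose in DZ WT cells, with 1 of 4 of complex II, 5 of 8 of complex III, 9 of 11 of complex IV and 12 of 15 of complex V. Sdhb, the iron-sulphur subunit of complex II, measured 473, 508 and 463 CPM in DZ WT cells and 275, 180, 230 and 237 CPM in naïve WT cells. The DZ libraries lay above all naïve ones (log2 fold change 1.06, SE 0.14, adjusted p = 9.38e-05). Uqcr10, a small accessory subunit of complex III, measured 238, 213 and 215 CPM in DZ WT cells and 108, 64.1, 83.9 and 93.8 CPM in naïve WT cells. It also separated the groups (1.35, SE 0.18, adjusted p = 0.000121), as did Ndufs8, an iron-sulphur subunit of complex I (1.02, SE 0.13, adjusted p = 0.000119). In aPIK3CD cells Sdhb (0.96, SE 0.10), Uqcr10 and Cox6b1 had the smallest p among members that rose.

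Sdha, the partner of Sdhb that holds the flavin, did the opposite. It measured 211, 289 and 248 CPM in DZ WT cells and 423, 388, 389 and 430 CPM in naïve WT cells. Every DZ WT library was below every naïve one (log2 fold change -0.71, SE 0.13, adjusted p = 0.00113). In aPIK3CD cells it measured 310, 212, 293 and 240 CPM in DZ cells and 404, 401, 379 and 355 CPM in naïve cells, again without overlap (-0.53, SE 0.12, adjusted p = 0.00411). The membrane anchors of the complex did not pass in DZ WT cells, where Sdhc had a log2 fold change of -0.51 (SE 0.20, adjusted p = 0.0581) and Sdhd 0.16 (SE 0.17, adjusted p = 0.482).

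Counts against naïve cells were of like size in LZ cells. Between LZ and naïve WT cells 58 of 74 members rose and 2 fell, against 19.8% and 20.2% of all genes (40% either way), with a median of 0.74. In aPIK3CD cells 58 of 73 rose and 1 fell, against 21.8% and 20.8%, with a median of 0.64, and 54 members rose in both genotypes. The named WT members were Uqcr10 (1.34, SE 0.20, adjusted p = 0.00014), Ndufc1 of complex I (1.37) and Atp5k, a membrane subunit of ATP synthase (1.54). In aPIK3CD cells they were Atp5g3 (0.91), Sdhb (0.77) and Atp5c1, the rotating gamma subunit (0.69). Sdha was lower in LZ cells of WT mice (-0.52, SE 0.14, adjusted p = 0.00982) and of aPIK3CD mice (-0.32, SE 0.11, adjusted p = 0.0348). These population comparisons share their naïve libraries within a genotype.

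Between LZ and DZ cells no member passed in the fit of each pair of groups. Of 74 tested in WT, 0 passed, against 2.83% of all genes (1.27% higher and 1.56% lower), and 3 had an unadjusted p under 0.05. Of 73 in aPIK3CD, 0 passed, against 6.04% (3.13% higher and 2.91% lower), and 2 had an unadjusted p under 0.05. The DESeq2 Wald test and edgeR without a filter called 1 member in each genotype. Calls of 1 member also came from edgeR's single fit over all groups in WT, from the replicate block in aPIK3CD and without WT LZ replicate 4. The smallest p belonged to Cox7a2l, known for its part in joining respiratory complexes, with 116, 98.1, 79.2 and 111 CPM in LZ WT cells and 169, 165 and 133 CPM in DZ WT cells. All LZ values were lower (log2 fold change -0.62, SE 0.18, adjusted p = 0.0718). In aPIK3CD it was Sdhd, with 359, 347, 337 and 281 CPM in LZ cells and 295, 197, 282 and 210 CPM in DZ cells, where the ranges overlapped (0.42, SE 0.14, adjusted p = 0.0851).

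**Figure D2:**
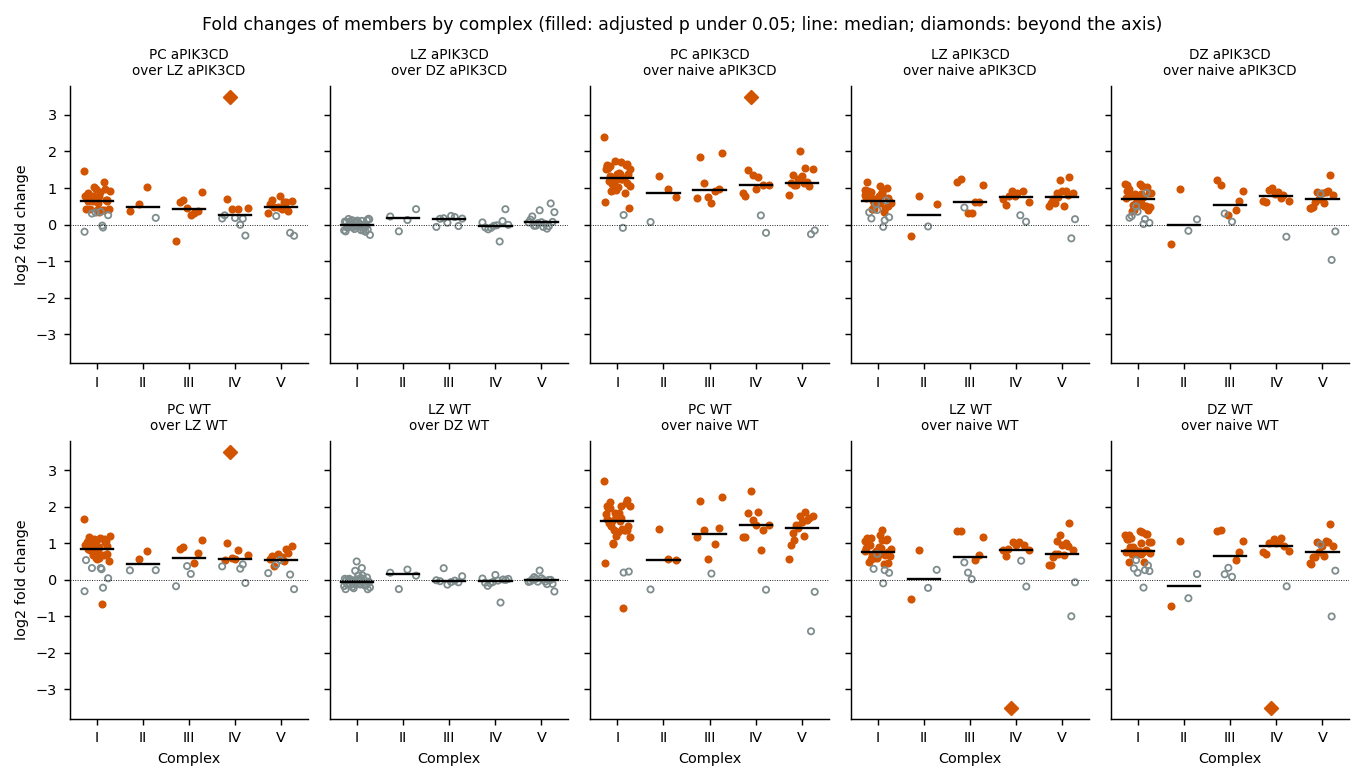
Log2 fold change (y axes) of each tested member by complex (x axes) in the 10 comparisons of populations, with aPIK3CD in the upper row and WT in the lower. Filled points passed an adjusted p of 0.05, horizontal lines are medians, and diamonds mark Cox6a2 beyond the axis. In the panels over naïve cells most points lie above 0, and in those of LZ over DZ cells none is filled.

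Plasma cells had the highest levels. Between plasma and naïve WT cells 66 of 74 members rose and 1 fell, against 25.4% and 24.2% of all genes (49.6% either way), with a median log2 fold change of 1.45 (all genes -0.09). In aPIK3CD cells 67 of 74 rose and 0 fell, against 26.5% and 26.2%, with a median of 1.16, and 65 rose in both genotypes. Complex I had the highest WT median, 1.61, with 33 of 36 higher, and complex II the lowest, 0.54, with 3 of 4 higher.

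Ndufa1 measured 488, 531, 429 and 421 CPM in WT plasma cells and 94.8, 52.9, 69.9 and 78.4 CPM in WT naïve cells. The groups were far apart (log2 fold change 2.71, SE 0.19, adjusted p = 2.42e-08). In aPIK3CD it measured 398, 353, 405 and 421 CPM in plasma cells and 73.3, 79, 79 and 69.8 CPM in naïve cells (2.403, SE 0.11, adjusted p = 7.74e-09). Next in WT came Ndufa4 (2.12, SE 0.17) and Ndufv3, an accessory subunit of the NADH-oxidizing module (2.03, SE 0.17), and in aPIK3CD Atp5b (1.14) and Ndufa13 of complex I (1.64).

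Against LZ cells, plasma cells of WT mice had 51 of 73 members higher and 1 lower, against 28.1% and 28.3% of all genes (56.4% either way), with a median of 0.67. In aPIK3CD mice 55 of 73 were higher and 1 lower, against 29.5% and 31.6% (61.2% either way), with a median of 0.49, and 48 were higher in both genotypes. Ndufa1 (1.66, SE 0.18) and Ndufv3 (1.21) led in WT beside Cox6a2, and Ndufa1 (1.46) and Ndufs3 (1.15) in aPIK3CD. Ndufs3, a core subunit of the complex I arm, measured 204, 209, 194 and 233 CPM in aPIK3CD plasma cells and 92.8, 105, 86.5 and 95.5 CPM in aPIK3CD LZ cells. Uqcr10, which stood out in germinal centre cells, was the 1 member lower in aPIK3CD plasma cells, with 157, 119, 149 and 137 CPM in plasma cells and 172, 219, 185 and 189 CPM in LZ cells (-0.44, SE 0.14, adjusted p = 0.0155). Every plasma cell value was below every LZ value.

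Cox6a2, the isoform known from heart and skeletal muscle, had a pattern of its own. It measured 89.3, 127, 111 and 104 CPM in aPIK3CD plasma cells and 82, 54.9, 103 and 102 CPM in WT plasma cells. In naïve cells it measured 5.08, 3.52, 0.384 and 6.22 CPM for aPIK3CD and 20.9, 21.4, 10.4 and 12.5 CPM for WT. In germinal centre cells it had 0 counts in all 7 WT libraries used, 3 counts in 1 aPIK3CD DZ library and 1 count in 1 aPIK3CD LZ library. With 3 counts per group taken as the floor, it was at least 23.2-fold lower in DZ WT than in naïve WT cells and at least 33.0-fold lower in LZ WT cells, and both differences passed. In WT plasma cells it was at least 178-fold higher than in LZ cells, and in aPIK3CD plasma cells the ratio to LZ cells was 653, with a 95% counting interval of 117 to 25811 that rests on the 1 count.

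Among the Cox6a transcripts, scaled by length, Cox6a2 made up 22.2 ± 3.84% in aPIK3CD and 14.5 ± 4.72% in WT plasma cells (SD, n = 4 each), with overlapping ranges. In naïve cells it made up 2.72 ± 1.80% in aPIK3CD and 10.1 ± 4.04% in WT. The naïve ranges were apart, 0.269 to 4.55% in aPIK3CD and 6.67 to 15.8% in WT. The naïve difference was the smallest member p there and did not pass (log2 fold change -2.09, SE 0.69, adjusted p = 0.99982). Within the Cox7a genes the Cox7a2l share was 20.9 ± 2.92% in aPIK3CD and 19.6 ± 1.53% in WT plasma cells, near 25% in LZ cells (25.5 ± 1.32% in aPIK3CD and 24.9 ± 2.74% in WT) and 35.01 ± 0.864% in aPIK3CD and 32.9 ± 0.769% in WT naïve cells. DZ cells, at 32.1 ± 2.70% in aPIK3CD and 33.5 ± 3.85% in WT, were near the naïve share.

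Ndufs1 (ENSMUSG00000025968) was the 1 member lower in WT plasma cells than in naïve cells. It measured 95.7, 105, 110 and 102 CPM in WT plasma cells and 195, 154, 186 and 193 CPM in WT naïve cells (log2 fold change -0.77, SE 0.17, adjusted p = 0.00136), and it was also lower than in WT LZ cells (-0.67, SE 0.21, adjusted p = 0.0158). In aPIK3CD plasma cells it measured 204, 167, 171 and 164 CPM, which lay within the range of the aPIK3CD naïve libraries (203, 178, 153 and 227 CPM). The sign of the WT Ndufs1 estimates depended on how depth was fitted, as given below.

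**Figure D3:**
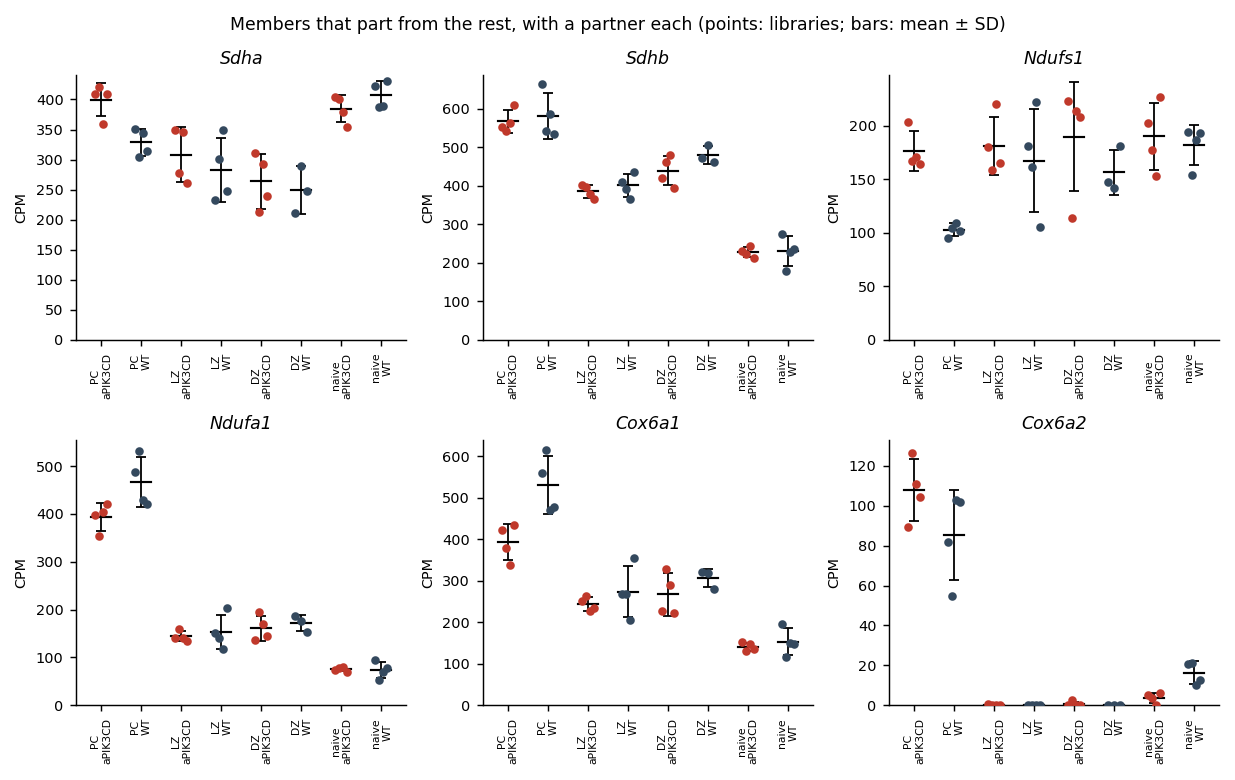
CPM (y axes, from 0) of 6 members in each of the 8 groups (x axes), with aPIK3CD in red and WT in dark blue. Points are libraries and bars the mean ± SD. Sdha is lower in DZ cells than in naïve cells while its partner Sdhb is higher, Ndufs1 is low in WT plasma cells alone among the group means, and Cox6a2 is at or near 0 in DZ and LZ cells.

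Few members differed between genotypes. In naïve cells 0 of 74 passed, in DZ cells 0 of 73 and in LZ cells 0 of 73, and in these comparisons 0% of all genes passed. At an unadjusted p under 0.05 they held 1, 3 and 0 members, and the DESeq2 Wald test called 0 members in each. The smallest p in DZ cells was that of Ndufa8 of complex I, with 163, 166, 157 and 116 CPM in aPIK3CD and 208, 216 and 201 CPM in WT (log2 fold change -0.46, SE 0.15, adjusted p = 0.449). In LZ cells it was that of Ndufc1 (-0.39, SE 0.19, adjusted p = 0.763). The median fold change was -0.02 in naïve, -0.17 in DZ and -0.14 in LZ cells, against values within 0.01 of 0 for all genes tested.

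In plasma cells 1 of 73 members rose and 0 fell, against 1.98% and 1.22% of all genes (3.2% in either direction). The member was Ndufs1, whose values above separated aPIK3CD from WT plasma cells (log2 fold change 0.75, SE 0.14, adjusted p = 0.0219). The other members leaned the other way, with a median of -0.30 and 58 of 73 fold changes below 0. At an unadjusted p under 0.05 there were 37 members (50.7%), against 23.3% of all genes. After removal of immunoglobulin genes before normalization 1 member rose and 11 fell, against 4.54% and 3.66% of all genes, and the DESeq2 Wald test called 1 higher and 8 lower, against 3.78% and 2.81%. Counting aPIK3CD replicate 1 as WT, or adding the replicate number as a block, left 0.

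By complex, medians in plasma cells were -0.31 for complex I, 0.19 for complex II, -0.31 for complex III, -0.43 for complex IV and -0.14 for complex V. Complex IV summed to 2003 ± 80.1 CPM in aPIK3CD and 2586 ± 331 CPM in WT plasma cells (SD, n = 4 each), with no overlap of the ranges (1890 to 2077 and 2297 to 3043 CPM). Complex II summed to 1534 ± 55.2 CPM in aPIK3CD and 1383 ± 114 CPM in WT, with overlapping ranges (1466.5 to 1601.3 and 1282.0 to 1494.4 CPM). The ranges of complexes I, III and V overlapped too. Sdhc measured 177, 188, 198 and 212 CPM in aPIK3CD and 141, 112, 158 and 148 CPM in WT, without overlap, but did not pass (0.43, SE 0.14, adjusted p = 0.0961). Whether the genotype effect differed among populations was tested with 3 degrees of freedom. Of 76 members 0 passed, against 0.0248% of all genes, 1 had an unadjusted p under 0.05, and DESeq2's likelihood ratio test called 1. The smallest p was that of Cox6a2 (adjusted p = 0.383).

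Library depth ran in the opposite order to the members' levels, with naïve libraries deepest and plasma cell libraries shallowest. Raw counts over all members were 18900 to 28479 in DZ, 16967 to 26646 in LZ and 24670 to 27930 in naïve libraries. Germinal centre and naïve libraries thus held similar numbers of member reads while their totals differed. Plasma cell libraries held fewer, 9195 to 13548 member reads. As shares of the total, members made up 1.64 to 2.04% in plasma cells, 1.45 to 1.88% in LZ, 1.40 to 1.70% in DZ and 0.900 to 1.26% in naïve cells. Among the deepest germinal centre libraries, aPIK3CD DZ replicate 1 (1941224 counts) summed to 14176 CPM and WT LZ replicate 3 (1835558 counts) to 13523 CPM, and the shallowest naïve library, WT replicate 1 (1965329 counts), to 11999 CPM. The deepest plasma cell library, aPIK3CD replicate 1 (788999 counts), summed to 21217 CPM, and the shallowest LZ library, WT replicate 4 (902088 counts), to 17766 CPM. These single libraries come from both genotypes, and WT naïve replicate 1 and WT LZ replicate 4 had the highest sums of their populations. The part of depth in the population differences was not tested.

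**Figure D4:**
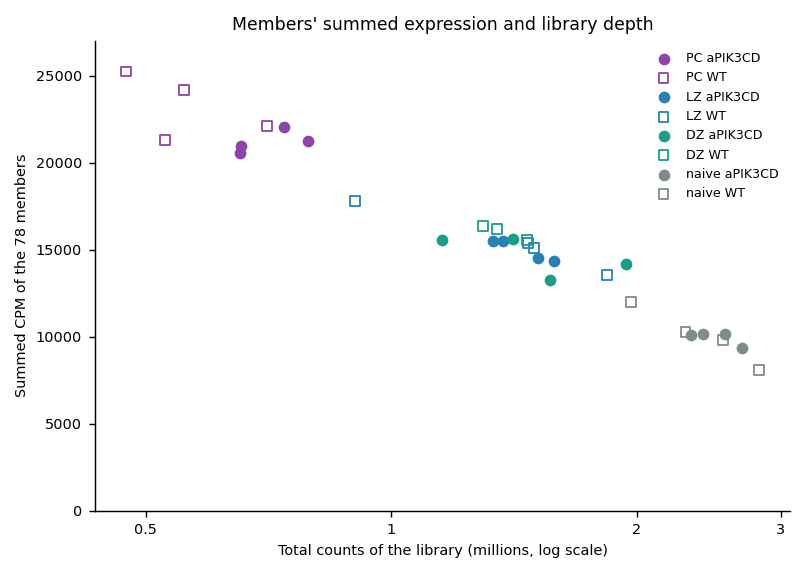
Summed CPM of the 78 genes (y axis, from 0) against the total counts of each library (x axis, log scale), with filled circles for aPIK3CD, open squares for WT and colours for populations. DZ WT replicate 3 is not drawn. Libraries run down from 25231 CPM in a WT plasma cell library to 8099 CPM in a WT naïve library. LZ and DZ libraries overlap, and plasma cell and naïve libraries lie apart from them on both axes.

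A fall with depth was also seen among replicates when all groups were fitted together. With the 8 groups as terms, 36 of 76 members fell with log2 total count and 1 rose, against 1.81% and 0.52% of all genes (2.33% either way). The median slope of the members was -0.58 in log2 per doubling of the total, against 0.06 over all genes. Slope medians were -0.59 for complex I, 0.13 for complex II, -0.57 for complex III, -0.64 for complex IV and -0.51 for complex V. The smallest p values belonged to Atp5e, the epsilon subunit of ATP synthase (-0.73, SE 0.12, adjusted p = 0.000299), Cox6b1 (-0.70), Cox8a of complex IV (-0.71) and Ndufa1 (-0.74). Ndufs1 was the member that rose (0.79, SE 0.19, adjusted p = 0.0239). Fitted within 1 population, median slopes were -0.26 in plasma cells, -0.61 in LZ, -0.49 in DZ and -0.99 in naïve cells, and the 1 call was Ndufb7 of complex I in LZ cells (-0.84, SE 0.17, adjusted p = 0.0478), against 0.355% of all genes there, 0.244% in plasma cells, 0.0101% in DZ and 0% in naïve cells. The members with the smallest p elsewhere were Cox6c in plasma cells (-0.91), Cox6a1 in DZ cells (-0.81) and Uqcrc1 in naïve cells (-0.87). In plasma cells alone 2 members (2.74%) had an unadjusted p under 0.05 for the slope, against 7.15% of all genes. The shares were 63% against 15.8% in LZ, 24.7% against 9.64% in DZ and 54.1% against 15.8% in naïve cells.

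The count of slope calls varied with the libraries kept. Leaving out replicate number 1 of every group gave 26 calls and number 2 gave 2. Number 3 gave 7 and number 4 gave 2. Shares of all genes are not given for these refits, which hold fewer libraries, and the counts are not read as a property of the members. Slopes were related to gene length. The 38 members with shorter exons had a median slope of -0.66 and the 38 longer ones -0.43, and the correlation with log2 exon length was 0.43 (Pearson) and 0.44 (Spearman) across 76 genes, which share libraries and are not independent. No gene had more than 2.07 counts per exonic base in any library and no member more than 1. The part of length in the slopes was not tested.

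In the plasma cell genotype comparison the same slopes, fitted over all groups together, stood beside the fold changes. WT libraries were shallower, with 473149 to 704361 counts, against 652722 to 788999 in aPIK3CD. Across 73 members the aPIK3CD over WT fold change and the slope had a Pearson correlation of 0.876 and a Spearman correlation of 0.735, given as a description, since the plasma cell libraries enter both. Members at the negative end of both, such as Atp5k, had lower fold changes than members with slopes near or above 0. Among the latter were Uqcrc2, a core protein of complex III, and Sdha. The members' median slope times the depth difference between the 2 groups was -0.19, beside a median fold change of -0.30. The depth ranges overlapped. WT replicate 3, with 704361 counts, summed to 22114 CPM over all members. The shallower aPIK3CD replicates 2 (652722 counts) and 3 (654790 counts) summed to 20530 and 20955 CPM. WT replicate 4, with 527652 counts, summed to 21292 CPM, and the deeper aPIK3CD replicate 4, with 737303 counts, to 22038 CPM. The ranges of this sum overlapped, at 20530 to 22038 CPM in aPIK3CD and 21292 to 25231 CPM in WT. The part of depth in the genotype difference was not tested.

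**Figure D5:**
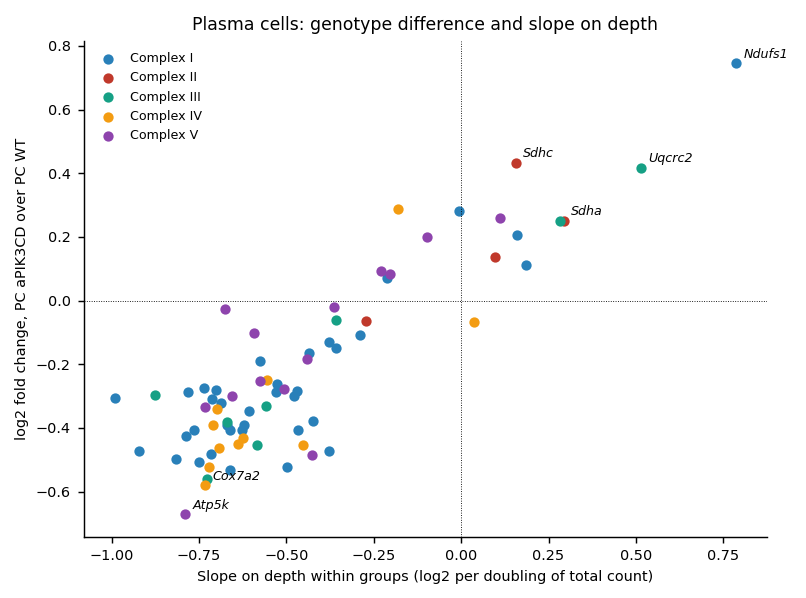
Log2 fold change in plasma cells of aPIK3CD over WT (y axis) against the slope on depth within groups, in log2 per doubling of the total count (x axis), for 73 members coloured by complex. Points run from lower left to upper right, with Ndufs1 at the upper right at a slope of 0.79 and a fold change of 0.75.

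A single fit over all groups with log2 total count as a covariate, chosen after seeing the data, gave the members' differences at equal depth as far as a straight line can. Between DZ and naïve WT cells 31 of 76 members were then higher and 1 lower, against 12.8% and 9.99% of all genes, with a median of 0.44. Between LZ and naïve WT cells 28 were higher and 1 lower, against 12.6% and 8.92%, with a median of 0.36. Between plasma and naïve WT cells 7 were higher and 0 lower, against 6.58% and 4.68%, with a median of 0.31. Between plasma and LZ WT cells 7 were higher and 4 lower, against 14% and 14.3%, with a median of -0.01. The shares of members that were higher stood above the background in both germinal centre zones, near it in plasma over naïve cells and below it in plasma over LZ cells.

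Which complexes kept calls also changed. With the covariate, 10 of 15 members of complex V and 4 of 8 of complex III were higher in DZ WT than in naïve WT cells, with 12 of 36 of complex I and 4 of 13 of complex IV. The genes given here with the covariate were chosen after their values were seen. In plasma over naïve WT cells the 7 were Ndufa1, Ndufv3, Sdhb, Uqcrc1, Atp5a1, Atp5b and Atp5c1, and no complex IV member was among them. Atp5b measured 1403, 1292, 1315 and 1436 CPM in WT plasma cells and 823, 624, 723 and 731 CPM in WT naïve cells, and its slope on depth was -0.10 (SE 0.09, adjusted p = 0.700). In aPIK3CD 10 of 76 members were higher and 0 lower in plasma over naïve cells, against 10.1% and 8.03% of all genes, and they included Atp5a1, Atp5b, Atp5c1, Uqcrc1, Uqcrc2, Sdhb and Sdhc. Sdhb kept its DZ call in WT (0.85, SE 0.13, adjusted p = 2.08e-05), as did Uqcr10 and Ndufs8, while Sdha lost it (-0.48, SE 0.18, adjusted p = 0.0512).

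The Ndufs1 estimate changed sign in this fit and no longer passed, with 0.79 (SE 0.43, adjusted p = 0.269) in WT plasma over naïve cells and 0.35 (SE 0.31, adjusted p = 0.42) over LZ cells. With the covariate 0 members passed between genotypes in any population (0.223% of all genes in plasma cells). In plasma over LZ cells of WT mice Cox6a2, Sdhc, Ndufa1, Ndufv3 and Atp5b were called higher with and without the covariate, Uqcrc1 and Uqcrc2 only with it, while Atp5e, Ndufa10, Atp5k and Uqcr10 were lower. Uqcr10 was lower in aPIK3CD too (-1.05), and Cox7a2l was lower in LZ than in DZ cells of both genotypes (-0.62 in WT, adjusted p = 0.017). Because every plasma cell library was shallower than every naïve one, population and depth cannot be told apart for these genes, and the covariate extrapolates beyond each group's own range. After thinning all libraries to the smallest total of a comparison, 59 of 74 members were higher and 2 lower in DZ over naïve WT cells, against 22.8% and 19.9% of all genes. In plasma over naïve WT cells 66 of 73 were higher and 1 lower after thinning, against 27.3% and 25.2%.

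Other mitochondrial lists were set beside the members. All 7 tested subunits encoded by mitochondrial DNA rose in WT DZ, LZ and plasma cells over naïve cells, with medians of 0.93, 0.94 and 1.87, and all 7 fell with depth within groups. Mitochondrial ribosomal proteins rose in 36 of 77 for DZ, 44 of 77 for LZ and 35 of 75 for plasma cells over naïve cells in WT, led in plasma cells by Mrpl57 (2.55) and Mrps28 (2.34). Cytosolic ribosomal proteins, which are no part of the mitochondrion, rose in 36 of 78, 52 of 78 and 43 of 75 in the same order, and 33 of 78 fell with depth. The shares of all genes that rose in these comparisons or fell with depth are those given above beside the members. Genes of these lists that fell between populations are not counted here, and no difference from the background was tested. Cox4i1, the main Cox4 isoform that the patterns leave out, was higher in WT plasma cells over naïve cells (1.83, SE 0.18, adjusted p = 7.65e-07), as was cytochrome c1, Cyc1 (0.81).

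Lists that supply or assemble the chain were read against the same background, 25.4% of all genes higher and 24.2% lower in WT plasma over naïve cells, and no difference between lists was tested. Of 13 citrate cycle genes 2 rose (Mdh2 0.66, malate dehydrogenase, and Idh3g 0.41) and 2 fell, among them Fh1, fumarase (-1.25), in WT plasma over naïve cells, and the median was -0.12. Of 46 assembly factors 16 rose, led by Uqcc2 for complex III (1.504) and Coa6 for complex IV (1.55), and 5 fell, with a median of 0.34. Of 11 regulators 0 rose and 4 fell, among them Myc (-2.15), Hif1a (-1.32) and Nrf1 (-1.28). Citrate cycle genes had a median slope on depth of 0.13 and assembly factors of -0.06, unlike the members. Between genotypes in plasma cells 2 of 7 mitochondrially encoded subunits fell (mt-Nd6 -0.80 and mt-Nd4 -0.57), and 0 of the 41 assembly factors, 10 regulators, 75 mitochondrial and 55 cytosolic ribosomal proteins tested passed. The shares of all genes that rose and fell in that comparison are given above beside the members.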

How the data were processed

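RNA of 32 libraries was made from 500 sorted spleen B lineage cells each with a SMART-Seq v4 kit, per the labels. The deposited values are whole-number read counts per gene, and the submitters' processing notes name STAR 2.4.2a, HTSeq and Picard. The genome build and the strand setting of counting are not given in the sources used here. Samples were grouped by population and genotype from their titles.

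Counts were tested with edgeR 4.0.16 (quasi-likelihood, TMM scaling, filterByExpr with a minimum count of 10 and a total of 15) in R 4.3.3, 1 fit for each of 14 pairs of groups, 1 interaction fit and 1 fit of the slope on log2 total count with groups as terms. P-values were adjusted by Benjamini-Hochberg over all genes tested, with a threshold of 0.05. The standard error (SE) is the log2 fold change divided by the root of the F statistic. CPM used 1 TMM scaling over 32 libraries. Exon lengths are from GENCODE M21, which held 53274 of the 53465 gene identifiers, and promoters from RefSeq. DZ WT replicate 3, with 25797 counts, was left out. The scripts were tested on simulated data. Python 3.11.15, pandas 2.3.3 and matplotlib 3.10.9 were also used.

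Named in each comparison were up to 3 called members per direction with the smallest p, or the 1 with the smallest p where none passed, up to 4 for the interaction and slope, plus core subunits and isoform sets for their levels, the other subunits of complex II beside Sdha and Sdhb (chosen after their values were seen) and up to 2 called genes of each related list. Of the regulators and of the citrate cycle genes, 3 called genes each were named. The members and lists were chosen with earlier results of these data known. Alternatives were DESeq2 1.42.0 and its size factors, no filter, a single fit, a replicate block, log2 total count as a covariate, removal of immunoglobulin genes, thinning to the smallest total, a correction for the counts-per-base ceiling, aPIK3CD replicate 1 counted as WT, and each replicate left out. A few marker and related genes are not reported here.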

Additional observations from a re-analysis of the deposited data

Results flagged for a closer look

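The 217 groups of 4 libraries checked, each of 1 member in 1 group, did not cover every member in every group. A library stood apart from the other 3 in 9 of them, where chance gives about 1 in 20. None of these was weighed. In aPIK3CD plasma cells, replicate 3 had 239.09 CPM of Atp5e, above 210.66 to 212.95 in the others. Replicate 4 of the same group had 366.51 CPM of Cox6b1, above 316.27 to 322.6, and 219.22 CPM of Cox8a, below 244.73 to 249. In aPIK3CD LZ cells, replicate 2 had 338.86 CPM of Ndufs8, above 322.72 to 324.85, and replicate 1 had 0.72497 CPM of Cox6a2, from 1 count, against 0 in the others. In aPIK3CD DZ cells, replicate 2 had 2.4682 CPM of Cox6a2 against 0 in the others, and 114.36 CPM of Ndufs1, below 208.41 to 223.49. In aPIK3CD naïve cells, replicate 4 had 119.24 CPM of Ndufa13, below 125.12 to 126.24, and replicate 3 had 74.056 CPM of Ndufv3, below 98.501 to 100.88.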

How the results depend on the processing

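Depth was the setting that changed most. In a single fit with total count (log2) as covariate, chosen after seeing the data, members called fell to 32 (DZ over naïve), 29 (LZ over naïve), 7 (plasma over naïve) and 11 (plasma over LZ) in WT, against 22.8%, 21.5%, 11.3% and 28.3% of all genes, and 24, 18, 10 and 17 in aPIK3CD, against 27.2%, 23.2%, 18.1% and 37.1%. In fits of each pair the covariate left 0, 1, 0 and 7 in WT and 2, 0, 0 and 1 in aPIK3CD. In each of these pairs the depth ranges of the 2 groups did not overlap, so the covariate can take up group differences of any gene. Shares of all genes are not given for these pair fits, and the counts are not read as a property of the members. Ndufs1 turned to 0.79 (plasma over naïve WT) and 0.35 (plasma over LZ WT) in the single fit and 0.47 in the fit of plasma and LZ WT alone, while plasma over naïve WT alone gave -1.20. None of these passed. Medians turned to -0.02996 (plasma over naïve WT, pair fit), -0.01277 (plasma over LZ WT, single fit) and -0.001922 (plasma over LZ aPIK3CD, single fit).

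Between genotypes in plasma cells, 1 call became 2 with DESeq2 size factors or the ceiling correction, 9 with the DESeq2 Wald test, 12 without immunoglobulin genes and 0 with either covariate fit, the replicate block or aPIK3CD replicate 1 counted as WT. LZ over DZ cells gave 1 call in WT with the DESeq2 Wald test, no filter, the single fit and both covariate fits, and 1 in aPIK3CD with the DESeq2 Wald test, no filter, the replicate block and the single covariate fit. The interaction gave 1 call with DESeq2's likelihood ratio test. The slope gave 19 with DZ WT replicate 3. Shares of all genes are not given for this slope count or for the counts below with a replicate left out. The causes were not tested.

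With a replicate left out, calls ranged over 0 to 3 (genotype, plasma), 53 to 63, 49 to 60, 64 to 67, 0 to 1 and 44 to 59 (WT DZ, LZ and plasma over naïve, LZ over DZ, plasma over LZ), 50 to 56, 55 to 58, 67 to 68 and 49 to 57 (aPIK3CD without LZ over DZ) and 2 to 26 (slope). Whether same-numbered libraries are paired is not established: the labels share a number across populations of a genotype without naming a mouse, correlations of deviations ran from -0.089 to 0.265, and in LZ over DZ and DZ over naïve aPIK3CD all 4 libraries correlated best with their own number. The replicate block moved the plasma cell genotype count to 0. Of 858 values of named genes and medians of members without a depth term, 827 kept direction and side, 19 lost and 7 gained the threshold, 0 reversed, and 5 medians moved, among them that of the slope, to -0.15 with DZ WT replicate 3.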
